A study of Saccharomyces cerevisiae with 36 samples.

Results

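The RNA that sedimented from budding yeast after a heat shock at 42 °C was compared with the RNA that stayed in solution. The comparison used 4 of the 36 libraries of the study, 2 of pellet RNA and 2 of soluble RNA, chosen by strain, temperature and fraction from their labels. The cells were Saccharomyces cerevisiae of the W303 Ade+ background carrying Ded1-mCherry (WT), a tagged but otherwise unmodified form of the RNA helicase Ded1, and every WT library shares this tag. Cultures were grown at 30 °C and then held for 10 min at 42 °C. Libraries of WT cells held at 30 °C and at 40 °C, and of cells with the tagged allele labelled Ded1_IDRm (IDRm) at 42 °C, served for comparison, again with 2 libraries per fraction. All RNA was depleted of ribosomal RNA before sequencing. The labels describe duplicate cultures of each strain, each split over the temperatures, but do not say that a replicate number marks the same culture in every fraction. P-values rest on the spread between 2 libraries per group.

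In heat-shocked yeast a part of the messenger RNA leaves the translating pool and collects with RNA-binding proteins in condensates that can be spun down. Ded1 unwinds the leaders of messenger RNAs while ribosomes scan for the start codon, and it is among the proteins that condense in heat. A pellet can also hold RNA bound to membranes, to mitochondria or to large polysomes. The heat shock transcription factor Hsf1 turns on chaperone genes through a DNA element built of alternating GAA and TTC units.

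The pellet libraries held 11248741 and 11374990 counts and the soluble libraries 6409580 and 4934241. Levels are CPM, each count as a share of its library, scaled by the trimmed mean of M-values (TMM), and are given with pellet replicates 1 and 2 before soluble replicates 1 and 2. Differences are fitted log2 ratios of pellet to soluble level with their standard error. A gene was called at an adjusted p under 0.05 in the edgeR quasi-likelihood test with Benjamini-Hochberg adjustment over all 6141 genes tested. Each library is scaled to its own total, so a difference says how a transcript ranked within one fraction compared with within the other, not how many molecules the cell held. The heat shock was visible in total RNA, where HSP104, which dissolves protein aggregates, stood at 610 and 743 CPM at 30 °C and at 13940 and 14450 CPM at 42 °C.

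Library 2 of soluble RNA stood apart and bears on all results. Its total was the lowest of all 36 libraries. The log2 levels of the soluble replicates correlated at 0.960, the lowest of 18 replicate pairs, and those of the pellets at 0.997. Between the soluble replicates 6.51% of 5514 genes differed by more than 2-fold, while the pellets differed so at 0.0181% and the other pairs at no more than 3.57%.

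The deviation of the second soluble library had a pattern. Across 5414 genes the log2 ratio of soluble replicate 2 to replicate 1 rose with the GC content of the coding sequence (Spearman rho 0.463), and the same ratio of the pellets did so by 0.082. A trend along GC was not particular to this pair. The replicates of WT total RNA at 30 °C had a rho of -0.463. The pellet and soluble pairs of IDRm cells at 42 °C had -0.276 and -0.274. Counts of mitochondrially encoded genes made up 0.757% of the first soluble library and 0.151% of the second. ATP6, a mitochondrially encoded subunit of ATP synthase, had 245 CPM in the first and 22.3 CPM in the second. VAR1, a mitochondrially encoded ribosomal protein with 10.4% GC, had 30.6 CPM and 1.36 CPM. Nuclear genes took part. SLK19, a kinetochore protein gene with 32.7% GC, had 162 and 21.2 CPM, and MAD1, of the spindle checkpoint, had 89.7 and 14.4 CPM. Both were also low in one of the soluble libraries of IDRm cells at 42 °C, replicate 1, at 22.1 CPM against 152 CPM in its replicate for SLK19 and 14.2 against 82.7 CPM for MAD1. In the other direction RPL25, a protein of the large ribosomal subunit, had 569 CPM in the first WT soluble library and 1500 CPM in the second, and TAL1, a transaldolase of the pentose phosphate pathway, had 552 and 1336 CPM.

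**Figure D1:**
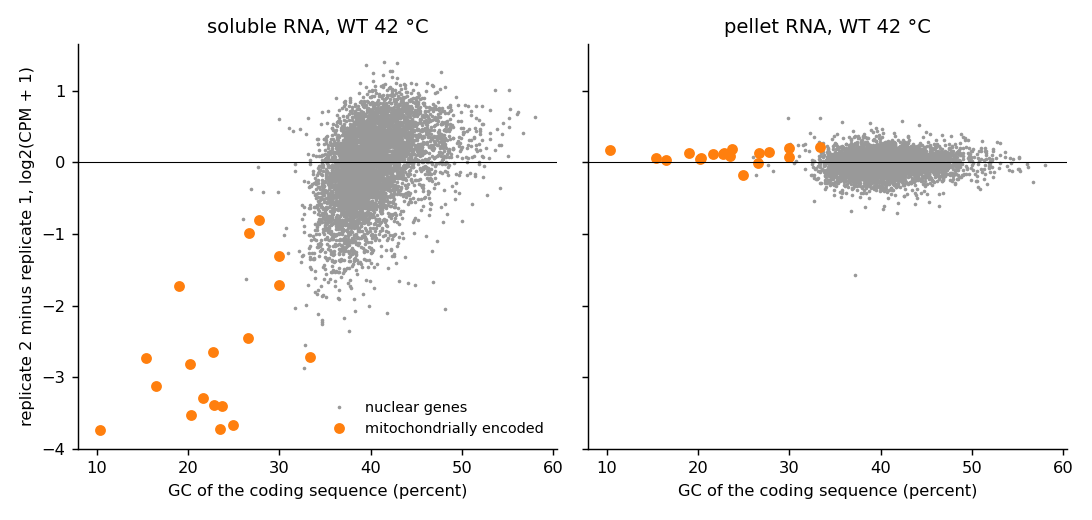
Log2(CPM + 1) of replicate 2 minus replicate 1 (y axis) against the GC content of the coding sequence in percent (x axis), for soluble RNA (left) and pellet RNA (right) of WT cells at 42 °C. Each grey point is a nuclear gene and each orange point a mitochondrially encoded gene, all with a mean of at least 5 CPM over the 4 libraries. Soluble replicates differ along GC (rho 0.463) and the mitochondrial genes lie at the bottom, while the pellets lie close to 0 throughout.

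The ratio of the soluble replicates also followed the response to heat. It fell with the change of a gene in total RNA from 30 to 42 °C, with a rho of -0.40 over 5400 genes, and the rho lay between -0.42 and -0.33 within each quintile of GC content. Genes of the Hsf1 chaperone list took 16.3% of the counts in the first soluble library and 11.3% in the second, but 8.95% and 8.79% in the pellets. Ribosomal protein genes took 12.7% and 18.2% of the soluble counts, but 2.68% and 2.70% of the pellet counts. The second soluble library correlated with the total RNA of WT cells at 30 °C at 0.848 and 0.831, the first at 0.816 and 0.818. With total RNA of 42 °C it was the reverse, 0.921 and 0.916 for the second and 0.950 and 0.946 for the first. The second library was nonetheless nearest to the first among all libraries.

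Each total level was also set beside the weighted sum of its pellet and soluble levels, where the weights of both fractions were fitted once per harvest. With the first soluble library, total replicate 1 lay more than 2-fold above the sum at 6 and below it at 1 of 5120 genes, and total replicate 2 at 3 and 11 of 5122. With the second, the counts were 94 and 21 of 4738 for total replicate 1, and 72 and 19 of 4741 for total replicate 2. The second soluble library thus departed from both total libraries more often than the first did. Among the other WT harvests, replicate 1 of 30 °C had 87 above and 253 below of 4987, and the other 3 had between 3 and 68 in either direction. Many results below are given also without the second soluble library where that changed a call, a direction or a value by more than 1.5 times. This was not done for every value.

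The first question was which transcripts sedimented at 42 °C in WT cells. Of 6141 genes, 4856 (79.1%) were called, 2605 (42.4%) of them higher in the pellet and 2251 (36.7%) lower. By at least 2-fold, 1774 (28.9%) were higher and 1574 (25.6%) lower. Both pellets stood above both soluble libraries at 2900 genes (47.2%) and below both at 2407 (39.2%). Without the second soluble library the calls were 2506 higher and 2232 lower, and 4486 of the 4856 calls were made again in the same direction. Single calls are therefore common here, and sizes and groups say more than the calls.

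**Figure D2:**
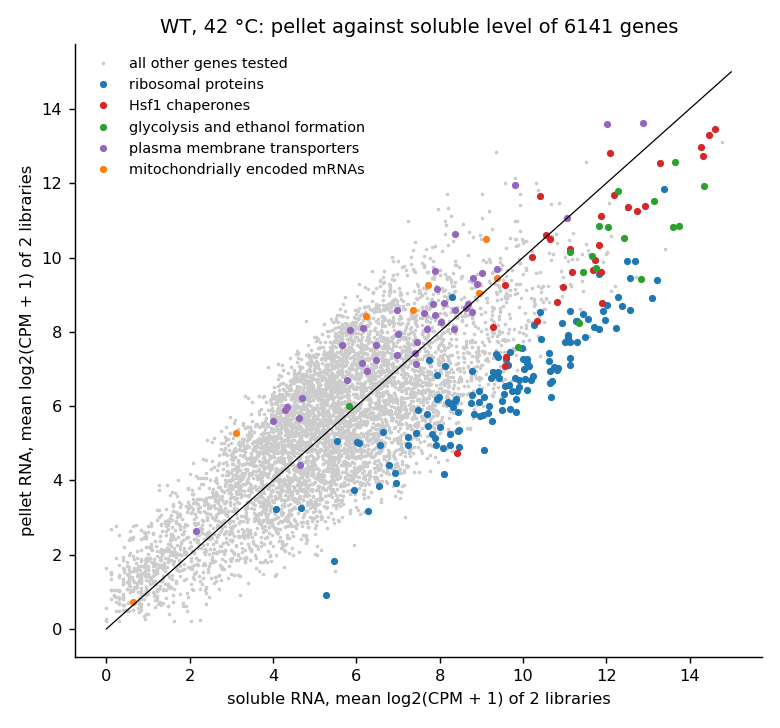
Mean log2(CPM + 1) over 2 pellet libraries (y axis) against that over 2 soluble libraries (x axis) for 6141 genes of WT cells at 42 °C, with equal levels on the line. Ribosomal protein genes (blue), chaperone genes (red) and glycolysis genes (green) lie mostly below the line, mitochondrially encoded genes (orange) near it, and genes of plasma membrane transporters (purple) mostly on or above it.

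The ends of the difference were sought among called coding genes that bear a standard name and reach 32 CPM. By rule, both pellets of these genes also lie above both soluble libraries, or both below. Most of the genes with the highest pellet-soluble difference had long coding sequences. The highest was REA1 (YLR106C, chromosome XII, 349006 to 363738, R64), also known as MDN1, a giant ATPase that strips assembly factors from new large ribosomal subunits. REA1 had 2245 and 1842 CPM in the pellets and 162 and 139 CPM in soluble RNA, a difference of 3.76 ± 0.23 (adjusted p = 2.86e-11). RPA190 (YOR341W, chromosome XV, 960987 to 965981), the largest subunit of RNA polymerase I, had 3457 and 3309 CPM against 254 and 329 CPM (3.54 ± 0.16, adjusted p = 4.92e-12). FAS2 (YPL231W, chromosome XVI, 108652 to 114315), the alpha subunit of fatty acid synthase, had 7585 and 7158 CPM against 516 and 814 CPM (3.47 ± 0.19, adjusted p = 1.29e-11). In all of them the pellets lay several-fold above the higher soluble library, which the choice of the largest differences without overlap favours. Others were PAH1, a phosphatidate phosphatase with a coding length of 2589 bases (3.52 ± 0.14), and GLT1, glutamate synthase (3.33 ± 0.16). RPO21, the largest subunit of RNA polymerase II (3.28 ± 0.18), and DNF2, a lipid flippase (3.25 ± 0.16), followed. TCB3, a tether between the endoplasmic reticulum and the plasma membrane, stood at 3.18 ± 0.15. CLG1, a cyclin-like protein with 1359 bases, stood among them at 3.27 ± 0.20. The sizes depended on the fit, and alternative fits included one with the trend of coding length removed. Over the alternatives REA1 ran from 0.33 to 3.90, GLT1 from 0.89 to 3.65 and RPA190 from 1.43 to 3.76. PAH1 ran from 2.32 to 3.64 and CLG1 from 2.91 to 3.54.

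By the same limits on name, level and overlap, the 10 lowest differences all belonged to ribosomal protein genes. RPS25A (YGR027C, chromosome VII, 534132 to 534458), of the small subunit, had 79.2 and 72.1 CPM in the pellets and 1224 and 2199 CPM in soluble RNA (-4.50 ± 0.50, adjusted p = 1.09e-06). RPS3 (YNL178W, chromosome XIV, 302680 to 303402), a single-copy gene of the small subunit, had 389 and 380 CPM against 4507 and 8170 CPM (-4.04 ± 0.29, adjusted p = 5.93e-10). RPS31, which encodes a ubiquitin fused to a ribosomal protein, had 510 and 454 CPM against 6633 and 11760 CPM (-4.25 ± 0.47). The pellets lay close together and the soluble replicates farther apart. The lowest difference of all 6141 genes was that of RPL41B, of the large subunit, under the limit of 32 CPM, with 0.716 and 1.09 CPM against 28.1 and 50.6 CPM (-5.40 ± 0.99). Many ribosomal protein genes have a near-identical copy, and reads of RPS25A, RPL43B (-4.31), RPL9A (-4.20), RPL40A (-4.14) and RPL40B (-4.08), RPS24A (-4.09) and RPS17B (-4.06) may be divided uncertainly among copies. Without the second soluble library RPL40A stood at -3.52 and RPL29, of the large subunit, at -3.46 instead of -4.10.

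**Figure D3:**
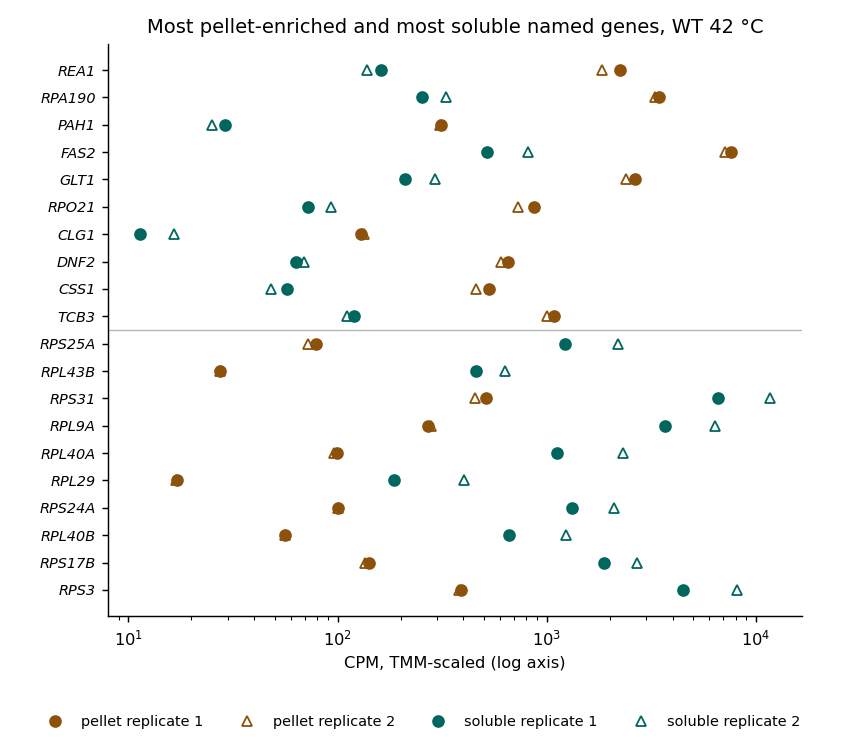
TMM-scaled CPM (log axis) of the 10 genes with the highest pellet-soluble difference (top) and the 10 with the lowest (bottom) in WT cells at 42 °C, among called genes with a standard name and at least 32 CPM. Brown marks are pellets, green marks soluble libraries, filled circles replicate 1 and open triangles replicate 2. Only genes with both pellets above or both below the soluble libraries were eligible, so no pellet mark overlaps a soluble mark. The soluble replicates of the lower genes lie farther apart than their pellets.

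The difference followed coding length. Genes were divided into quintiles by coding length, known for 5787 of the genes tested. The median difference was -1.13 in the shortest quintile (51 to 612 bases), -0.71 in the next, -0.14 in the third, 0.69 in the fourth and 1.51 in the longest quintile (2103 to 14733 bases). Higher in the pellet were 18.2% of the shortest and 84.6% of the longest genes, and lower were 61.9% and 5.7%. Across genes the rho with length was 0.578, a description over genes that share libraries. The same rho was 0.47 at 30 °C, 0.498 at 40 °C and 0.653 in IDRm cells at 42 °C. From the shortest to the longest quintile the median thus spanned 2.64 on the log2 scale at 42 °C, and 3.84 among genes of at least 32 CPM. GC content ran the other way and more weakly, with a median of 0.57 in the quintile of lowest GC and -0.32 in that of highest GC (rho -0.18). At 30 °C in WT these medians were 0.065 and -0.131. The soluble replicates of 42 °C themselves differed along GC. The median log2 ratio of the second to the first was -0.375 in the lowest quintile and 0.276 in the highest.

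**Figure D4:**
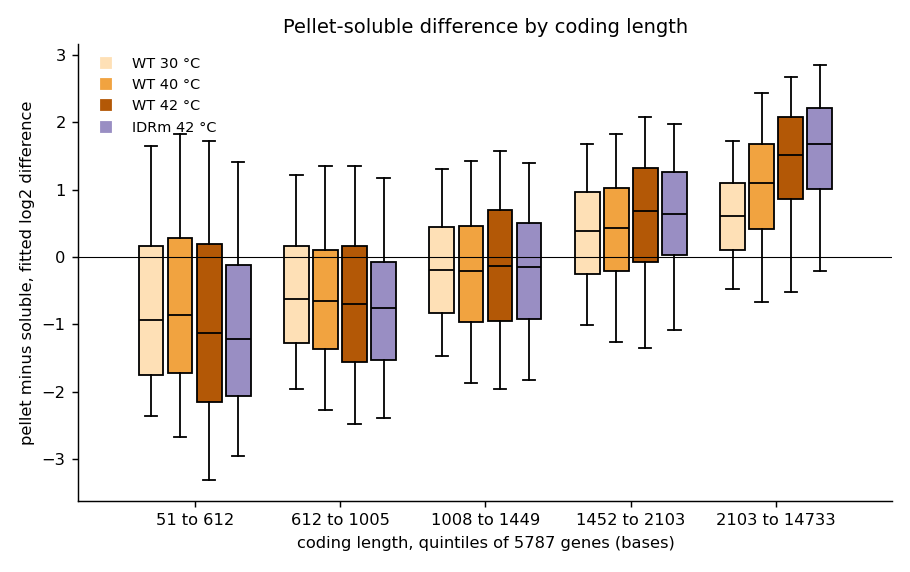
Fitted log2 difference of pellet and soluble RNA (y axis) by quintiles of coding length in bases (x axis) for 5787 genes, in WT cells at 30, 40 and 42 °C and IDRm cells at 42 °C. Boxes span the quartiles with the median as a line, and whiskers run from the 5th to the 95th percentile. The longest quintile moves up from a median of 0.61 at 30 °C to 1.51 at 42 °C in WT, and the shortest moves from -0.94 to -1.13.

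An estimate of the insoluble share of messenger RNA came from the weights that rebuild total from pellet and soluble levels. It holds only where no transcript was lost selectively on the way from a fraction to its library. The share was 29.4% and 37.2% in the WT cultures at 42 °C, 25.4% and 22.3% at 40 °C, and 22.3% and 18.1% at 30 °C. In IDRm cells at 42 °C it was 22.8% and 18.4%. With the soluble libraries exchanged between the replicates the WT values at 42 °C were 32.8% and 33.6%. With 2 values a group an exact permutation test cannot fall under the usual threshold, and none was made. On this scale 88.0% and 90.0% of the RPA190 transcripts were insoluble at 42 °C and 27.7% and 23.4% at 30 °C. For REA1 it was 88.2% and 92.3% at 42 °C and 48.3% and 45.5% at 30 °C. For RPS3 it was 4.43% and 4.01%, and 6.28% and 4.25% at 30 °C. These genes lie at the ends of the pellet-soluble difference, so their shares describe the ends. RPL3, also of the ribosome, had 17.8% and 21% insoluble at 42 °C. The values of RPP0, 51.3% and 52.6%, cannot be read as shares, because its fractions do not add up to its total, as described below.

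Genes of the protein synthesis machinery were mostly soluble. Of 137 ribosomal protein genes, 132 were tested, and 131 were lower in the pellet and 1 higher (median -3.09, against 0.17 over all genes tested). With the trend of coding length removed, 118 were lower and 3 higher (median -1.68). Other genes of the shortest quintile of coding length, without those raised at least 4-fold or lowered at least 2-fold in total RNA by heat, had a median of -0.99 (966 genes). The 1 gene called higher was RPP0 (YLR340W, chromosome XII, 805887 to 806825), which anchors the stalk of the large subunit, with 505 and 468 CPM in the pellets and 258 and 379 CPM in soluble RNA (0.61). In total RNA at 42 °C RPP0 had 1334 and 1312 CPM, above all 4 fraction libraries, so its fraction values do not add up to its total. RPL3, of the large subunit, had 3545 and 3823 CPM against 8829 and 12910 CPM (-1.56 ± 0.17, adjusted p = 5.92e-08), closer to even than the list's median.

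Translation factors followed with smaller differences. Of 28 initiation factor genes, 20 were lower and 6 higher (median -1.08). TIF11, which encodes eIF1A, stood at -3.34 ± 0.18 and TIF1, one of a pair of near-identical eIF4A genes, at -2.64 ± 0.20, while TIF4632, an eIF4G scaffold, stood at 1.94. Elongation and termination factors had 7 of 12 lower and 1 higher (median -0.89, or -0.56 without the second soluble library). They were led by TEF2, one of the identical genes of the elongation factor that brings aminoacyl-tRNA to the ribosome, with 726 and 705 CPM against 5014 and 8995 CPM (-3.29 ± 0.21). Among aminoacyl-tRNA synthetase genes 14 of 20 were lower and 5 higher (median -1.35). They were split between SES1, for serine, at -2.24 ± 0.11 and the long ILS1, for isoleucine, with 3320 and 3359 CPM against 429 and 623 CPM (2.67 ± 0.16). Ribosome biogenesis genes had 40 of 58 lower and 8 higher (median -1.26). REA1 above and LOC1, an RNA-binding assembly factor, at -3.08 ± 0.46 marked their ends, and LOC1 stood at -2.12 without the first soluble library. Among RNA polymerase subunits 20 of 31 were lower and 8 higher (median -0.81), from RPC17, of RNA polymerase III, at -2.92 ± 0.27 to RPA190. With the trend of length removed, 10 were lower and 9 higher, and the median was 0.01.

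DED1 itself (YOR204W, chromosome XV, 722911 to 724725) had 1376 and 1447 CPM in the pellets and 1901 and 2579 CPM in soluble RNA. It was lower in the pellet at -0.67 ± 0.14 (adjusted p = 0.000165), with both pellets under both soluble libraries. The difference was not called with the trend of GC content removed (-0.20, adjusted p = 0.128). DBP1, a paralog of DED1, stood on the other side with 34.5 and 37.3 CPM against 19.3 and 12.5 CPM (1.15 ± 0.17, adjusted p = 5.23e-06). PAB1, the poly(A)-binding protein that condenses in heat, had 656 and 670 CPM against 580 and 576 CPM, and its difference of 0.20 ± 0.17 was not called (adjusted p = 0.28). With the GC trend removed it was called at 0.41 (adjusted p = 0.0238).

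Chaperone genes under Hsf1 were lower in the pellet more often than higher. Of 30 genes of the Hsf1 chaperone list, 20 were lower in the pellet and 1 higher (median -1.40, against 0.17 over all genes tested). HSP10, the mitochondrial co-chaperonin, had 25.9 and 25.3 CPM in the pellets and 331 and 347 CPM in soluble RNA (-3.73 ± 0.29, adjusted p = 2.57e-09). MBF1, a transcriptional coactivator, stood at -3.12 ± 0.18 and HCH1, a co-chaperone of Hsp90, at -2.53 ± 0.16. HSP104 had 8306 and 7897 CPM against 22150 and 17500 CPM (-1.29 ± 0.26, adjusted p = 0.000156). UBI4, the stress-inducible polyubiquitin gene, had 793 and 766 CPM against 3529 and 3982 CPM (-2.27 ± 0.13, adjusted p = 1.38e-11). For these genes every pellet value lay under every soluble value. KAR2, the Hsp70 of the endoplasmic reticulum, was the gene called higher, at 0.73, and BTN2, which sorts misfolded proteins into deposits, had 3443 and 3069 CPM against 1843 and 987 CPM but was not called (1.20 ± 0.94, adjusted p = 0.252).

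Other chaperone genes were not called in the main edgeR fit of all libraries, and for some the call depended on the fit. SSA4, a heat-inducible Hsp70, had 10130 and 10030 CPM against 29440 and 17610 CPM (-1.22 ± 0.58, adjusted p = 0.0663). HSP26, a small heat shock protein, had 1026 and 923 CPM against 4859 and 2405 CPM (-1.90 ± 0.87, adjusted p = 0.0603). HSP42, another small heat shock protein, had 1601 and 1509 CPM against 1447 and 1543 CPM, with overlapping ranges (0.06 ± 0.72, adjusted p = 0.946). In a fit of the 4 libraries alone, SSA4 (-1.31, adjusted p = 0.0177), HSP26 (-1.99, adjusted p = 0.00649) and BTN2 (1.11, adjusted p = 0.0346) were called. With the harvest as a replicate block they were called as well, SSA4 at -1.18 (adjusted p = 1.45e-05), HSP26 at -1.81 (adjusted p = 0.00175) and BTN2 at 1.27 (adjusted p = 2.24e-05). DESeq2 on all libraries called SSA4 (-1.29, adjusted p = 0.0248) and HSP26 (-1.96, adjusted p = 0.0333). Upper-quartile scaling in edgeR also called SSA4 (adjusted p = 0.0469) and HSP26 (adjusted p = 0.0482). With the trend of length removed in edgeR SSA4 was called at -1.97 (adjusted p = 0.00603).

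The heat shock element was sought in the 250 bases before and 50 bases after the coding start of 6007 genes, as TTC-NN-GAA-NN-TTC (N is any base) or its reverse complement GAA-NN-TTC-NN-GAA, with overlapping matches allowed. It was found at 47 of them (0.782%), and at 9 of the 30 genes of the chaperone list (30.0%). The elements of 4 list members are shown because they span the list's range from the most soluble to the pellet side. Capitals mark the matched bases, 2 overlapping matches in the case of HSP42 and KAR2, and the sequences were read from the R64 genome on the strand of the gene. They lie at chrXV:370986-371010 (minus strand, 160 bases before the coding start of HSP10), chrXV:380805-380829 (plus strand, 242 bases before STI1), chrIV:806372-806401 (plus strand, 243 bases before HSP42) and chrX:381116-381145 (plus strand, 205 bases before KAR2).
HSP10: atgataGAAATTTCTAGAAtcttga
STI1: gatatcTTCGTGAAGATTCgtgtag
HSP42: taaaagTTCTGGAAGGTTCGCGAAttgaga
KAR2: ttaataGAACCTTCTGGAAATTTCacccgg
Behind these elements the transcripts stood at -3.73 for HSP10, at -1.75 for STI1, a co-chaperone of Hsp70 and Hsp90, at 0.06 for HSP42 and at 0.73 for KAR2. Over the 45 tested genes with the element 25 were lower in the pellet and 13 higher (median -0.79), beside a median of 0.14 for the genes without it. Of all genes tested, 36.7% were lower and 42.4% higher. A match says only that these letters are present in the window.

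The general stress genes of Msn2 and Msn4 were divided. Of 30 genes, 14 were lower in the pellet and 11 higher (median -0.33), or 7 higher in the fit of the 4 libraries alone. Over all genes tested 36.7% were lower and 42.4% higher. Without the second soluble library the median of the list was -0.20. HSP12, a membrane-stabilising stress protein, had 31.5 and 25.5 CPM in the pellets and 326 and 77.7 CPM in soluble RNA (-2.83 ± 0.51, adjusted p = 0.000148). HSP12 stood at -1.44 without the first soluble library and at -3.51 without the second. TMA10, a ribosome-associated stress protein, stood at -2.90 ± 0.52, or -1.79 without the first and -3.52 without the second, and was not called with the trend of length removed (-1.16, adjusted p = 0.0524). HOR7, of the osmotic stress response, was at -3.17 ± 0.35, or -2.42 without the first. All were lower in the pellet without either soluble library. Over all genes raised at least 4-fold in total RNA from 30 to 42 °C (262 genes), 103 were higher in the pellet and 89 lower (median 0.08). Their shares lay near those over all genes tested, 42.4% and 36.7%. Genes lowered at least 2-fold (301 genes) had 194 higher and 57 lower (median 0.96), and they were longer, with a median coding length of 1761 bases against 978. Within the longest quintile of coding length the raised genes had a median of 0.43 (23 genes), the lowered genes 1.97 (115 genes) and the remaining genes 1.47 (1020 genes). Within the shortest the raised genes had a median of -0.55 (75 genes), the lowered genes -0.15 (12 genes) and the remaining genes -1.18 (1071 genes). In the second quintile the lowered and remaining genes stood at -0.865 and -0.73, in the third at 0.05 and -0.17, and in the fourth at 0.688 and 0.692. The raised genes stood at -0.005, 0.16 and 0.48 in these, so the order of the groups differed between quintiles.

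Genes of abundant metabolic enzymes and of the proteasome were also soluble. Of 17 genes of glycolysis and ethanol formation, 16 were lower and none higher (median -1.85). TPI1, triosephosphate isomerase, had 720 and 649 CPM against 5810 and 9054 CPM (-3.44 ± 0.24, adjusted p = 1.84e-10), and TDH3, the main glyceraldehyde-3-phosphate dehydrogenase, had 3134 and 2758 CPM against 6935 and 11920 CPM (-1.68 ± 0.18). FBA1, aldolase, stood at -2.98 ± 0.23. Without the second soluble library 15 were lower and 1 higher. Proteasome subunits had 31 of 32 lower (median -1.87), among them PRE2, a catalytic subunit, at -2.85 ± 0.19. The 1 higher was RPN2, a large scaffold subunit, at 0.66. Amino acid biosynthesis had 37 of 53 members lower and 11 higher (median -1.23). HOM2, an enzyme shared by threonine and methionine synthesis, stood at -2.81 ± 0.22, and the long genes GLT1 and ARO1 at 3.33 and 2.80 ± 0.17. Purine synthesis genes had 8 of 14 lower and 3 higher (median -0.55), from ADE1 at -2.13 ± 0.16 to ADE6, a long gene of the same pathway, with 1900 and 1877 CPM against 242 and 334 CPM (2.71 ± 0.15).

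Sterol and fatty acid synthesis depended on the soluble library. Of its 27 genes 13 were lower and 5 higher (median -0.29), and without the second soluble library 12 were lower and 8 higher, with a median of 0.07. ACC1, acetyl-CoA carboxylase, had 2809 and 2365 CPM against 264 and 322 CPM (3.14 ± 0.17), and ERG26, of ergosterol synthesis, stood at -2.84 ± 0.25. Histone genes, which are short, had 9 of 10 lower (median -2.07), for example HTA2 at -2.88 ± 0.17. With the trend of length removed, 5 were lower and 2 higher.

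Nuclear genes of mitochondrial proteins were mostly lower in the pellet, and few mitochondrially encoded genes were called. Nuclear genes of the respiratory chain and ATP synthase had 32 of 34 lower in the pellet and 1 higher (median -1.67). QCR8, a small subunit of complex III, stood at -3.35 ± 0.30, and SDH1, the large subunit of complex II, was the 1 higher at 1.47. Of 64 mitochondrial ribosomal protein genes tested, of 65 listed, 53 were lower and 5 higher (median -1.37), with MRP2 at -3.38 ± 0.25. With the trend of length removed the 2 lists had 20 and 31 lower, and 3 and 9 higher. Of 8 mitochondrially encoded messenger RNAs 2 were higher and none lower (median 0.88). Over all genes tested 42.4% were higher and 36.7% lower, so calls were less frequent in this list. COX1, a core subunit of complex IV, had 1407 and 1487 CPM against 864 and 350 CPM (1.25 ± 0.27, adjusted p = 0.000468), and COX2 had 584 and 643 CPM against 298 and 150 CPM (1.45 ± 0.30, adjusted p = 0.00029). COX1 was not called in the fit of the 4 libraries alone (1.16, adjusted p = 0.0609), and COX2 was not called with the GC trend removed (0.40, adjusted p = 0.168). ATP6 had 324 and 368 CPM in the pellets against the soluble values given above and was not called (1.35 ± 0.62, adjusted p = 0.0595). COX3, also of complex IV, had 493 and 565 CPM, between the 895 and 271 CPM of soluble RNA. All 8 were lower in the second soluble library than in the first. The median was 0.08 without the second soluble library and 2.05 without the first, where 5 were called, so the size depended on which soluble library was used. With the GC trend removed it was -0.01.

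Genes of plasma membrane transporters were called higher in the pellet more often than lower, but not with the trend of length removed, where both were nearly as frequent. Of 43 tested, 27 were higher and none lower (median 0.74), and 36 were higher without the second soluble library. YOR1, a drug exporter, had 1645 and 1554 CPM against 333 and 330 CPM (2.27 ± 0.14, adjusted p = 2.56e-11), and TRK1, a potassium transporter, stood at 2.21 ± 0.14. PMA1, the proton pump of the plasma membrane, had 13140 and 12290 CPM against 6401 and 8781 CPM (0.74 ± 0.17, adjusted p = 0.000401). With the trend of length removed, 13 transporters were higher and 10 lower (median 0.02), and PMA1 stood at -0.57. PMA1 was not called in the fit of the 4 libraries alone (0.66, adjusted p = 0.0805). Among genes of translocation, folding and glycosylation in the endoplasmic reticulum 18 of 31 were higher and 9 lower (median 0.51), and 15 and 3 with the trend of length removed. LHS1, an Hsp70-like exchange factor of the endoplasmic reticulum, had 444 and 421 CPM against 152 and 151 CPM (1.51 ± 0.13), and SEC72, of the translocation complex, stood at -2.80 ± 0.14. Cell wall and GPI protein genes had 15 of 39 higher and 13 lower, shares near those over all genes (42.4% and 36.7%), with a median of 0.21, or -0.04 without the first soluble library. FKS1, glucan synthase, stood at 2.28 ± 0.18, but at 0.0017 with the trend of length removed (adjusted p = 0.995), and CCW12, a short cell wall mannoprotein, at -2.75 ± 0.17. Binding to membranes was not measured here, and its part in these values was not tested.

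Among stress granule and RNA-binding protein genes 13 of 30 were higher and 10 lower (median 0.14), close to the shares of 42.4% and 36.7% and the median of 0.17 over all genes. With the trend of length removed the median was -0.36. XRN1 (YGL173C, chromosome VII, 175527 to 180113), the main cytoplasmic exonuclease, had 1009 and 925 CPM in the pellets and 144 and 113 CPM in soluble RNA (2.91 ± 0.15, adjusted p = 1.01e-11). DCP2, the decapping enzyme, stood at 2.10 ± 0.20 and LSM12 at -2.60 ± 0.15. Nucleoporin and karyopherin genes, with a median coding length of 3057 bases, had 25 of 42 higher and 9 lower (median 0.51). MSN5, an exportin, had 936 and 866 CPM against 165 and 154 CPM (2.5 ± 0.14), and MLP2, of the nuclear basket, stood at 2.69 ± 0.62, or 3.76 without the first soluble library. MLP2 was not called with the trend of length removed (0.61, adjusted p = 0.29). With that trend removed, 8 of the 42 were higher and 26 lower. Cytoskeleton genes had 16 of 29 lower and 11 higher (median -0.53). The gene of cofilin, COF1, stood at -3.39 ± 0.30, and those of the motor MYO2 and the formin BNI1 both at 3.0 (± 0.18 and ± 0.22). ACT1, actin, had 280 and 261 CPM against 664 and 1000.0 CPM (-1.62 ± 0.16, adjusted p = 2.24e-08). Glucose-repressed genes had 16 of 25 higher and 3 lower (median 0.63), or 16 and 1 without the second soluble library. GUT1, glycerol kinase, had 94.7 and 92.8 CPM against 19.3 and 18.5 CPM (2.31 ± 0.14).

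**Figure D5:**
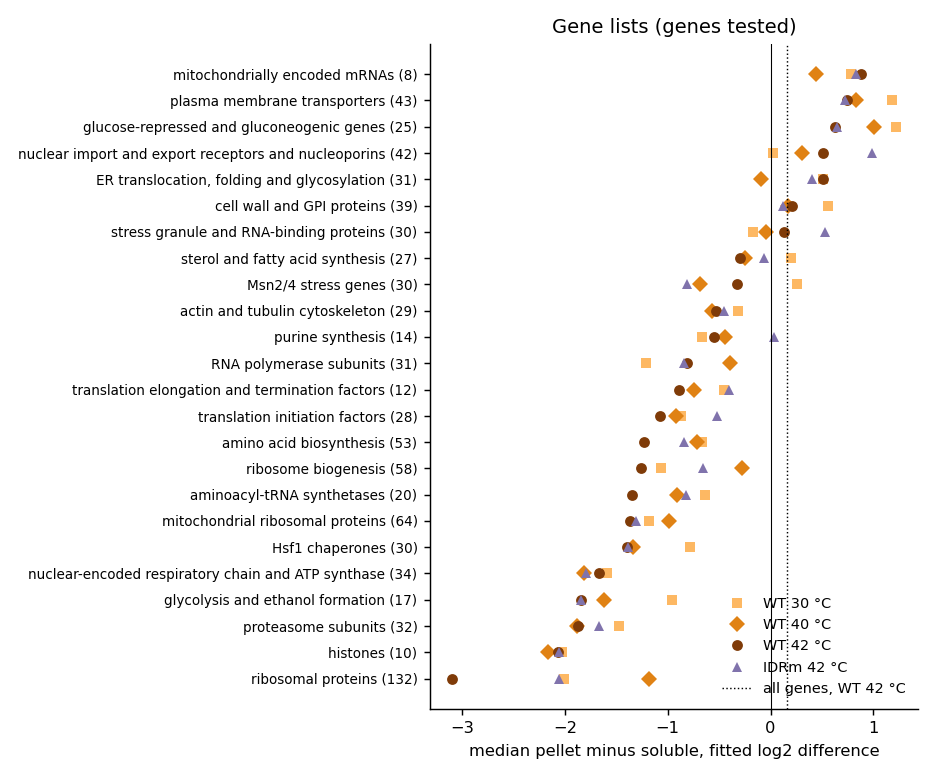
Median fitted log2 difference of pellet and soluble RNA (x axis) for 24 gene lists (y axis, number of genes tested in brackets), in WT cells at 30, 40 and 42 °C and IDRm cells at 42 °C. The dotted line is the median of all genes in WT at 42 °C, 0.17. At 42 °C ribosomal proteins are lowest with -3.09 and mitochondrially encoded messenger RNAs highest with 0.88, which is 0.08 without the second soluble library.

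The second question was how the pellet at 42 °C differed from that at lower temperatures in the same strain. It was asked as a test of the difference between the pellet-soluble differences. Across genes the difference at 42 °C ran with that at 30 °C (rho 0.819) and at 40 °C (rho 0.891), as a description over genes. Taken alone, the comparison of pellet and soluble RNA called 68.2% of the genes at 30 °C (33.4% higher, 34.8% lower), 73.9% at 40 °C (37.9% and 36.1%) and 78.7% in IDRm cells at 42 °C (41.3% and 37.4%). Against 30 °C, 2353 genes (38.3%) were called, 1448 (23.6%) with a higher difference at 42 °C and 905 (14.7%) with a lower one. The split depended on scaling, since size factors by relative log expression gave 42.3% of the calls as higher in place of 61.5% and moved the median over all genes from 0.06 to -0.18. The GC trend removed gave 46.2%. RPA190 had 3149 and 3428 CPM in the pellets of 30 °C and 2538 and 2797 CPM in soluble RNA (shift 3.24 ± 0.22, adjusted p = 1.03e-08). On the scale of each library its soluble level fell at 42 °C, while its pellet level stayed similar. The estimated insoluble share of messenger RNA was larger at 42 °C, so the similar level does not mean an equal amount of RNA in the pellet. AVL9, of late secretory transport, had 327 and 359 CPM against 377 and 367 CPM at 30 °C, and 384 and 392 CPM against 60.9 and 37.2 CPM at 42 °C (3.08 ± 0.29, adjusted p = 2.16e-07). GSH2, glutathione synthetase, had 206 and 209 CPM against 419 and 420.4 CPM at 30 °C and 384 and 405 CPM against 106 and 95.4 CPM at 42 °C (2.98 ± 0.17). By the estimate of the insoluble share these transcripts were mostly soluble at 30 °C and mostly in the pellet at 42 °C. For AVL9 the share was 21.1% and 19.6% at 30 °C and 77.2% and 90.4% at 42 °C. For GSH2 it was 13.2% and 11.0%, and then 66.0% and 79.2%.

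On the other side, RPS2, of the small subunit, had 1733 and 1613 CPM against 3735 and 3829 CPM at 30 °C and 694 and 695 CPM against 4575 and 8145 CPM at 42 °C (-2.02 ± 0.31, adjusted p = 6.06e-05). Of the ribosomal protein genes 72 were lower at 42 °C than at 30 °C and 1 higher, and 36 were lower without the second soluble library. Glycolysis had 14 of 17 lower and none higher, the Hsf1 list 12 of 30 lower and none higher, and amino acid biosynthesis 24 of 53 lower and 5 higher. Without soluble replicate 2 of 30 °C 21 of the Hsf1 list were lower, and without the second soluble library of 42 °C 9 of amino acid biosynthesis were higher. Nucleoporins and karyopherins had 19 of 42 higher and 7 lower (4 lower without any one of the pellets of 30 or 42 °C or the second soluble library of 42 °C), or 7 higher and 15 lower with the trend of length removed. Plasma membrane transporters had 18 of 43 lower and 7 higher, but 9 lower and 13 higher without the second soluble library. PMA1 had 21930 and 22250 CPM against 6646 and 8681 CPM at 30 °C, and its shift was -0.78 ± 0.23 (adjusted p = 0.012). The shift was not called without soluble replicate 1 of 30 °C (-0.60, adjusted p = 0.0744) or without pellet replicate 2 of 42 °C (-0.73, adjusted p = 0.0501). DED1 had 1431 and 1419 CPM in the pellets of 30 °C and 1111 and 1227 CPM in soluble RNA, and its shift was -0.95 ± 0.19 (adjusted p = 0.000663). All these falls are relative to other genes, and the estimated insoluble share of messenger RNA was larger at 42 °C. The share of DED1 was 28.45% and 22.39% at 30 °C and 28.01% and 33.5% at 42 °C. For TDH3, of glycolysis, it was 17.05% and 11.83%, and then 19.55% and 17.2%. For RPS2 it was lower at 42 °C, 12.53% and 9.505%, and then 7.54% and 7.111%.

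Against 40 °C, 1512 genes (24.6%) were called, 936 (15.2%) higher at 42 °C and 576 (9.38%) lower. Without the first soluble library of 42 °C these were 1456 and 899, without soluble replicate 1 of 40 °C 589 and 348, and without pellet replicate 1 of 40 °C 604 were higher. TPM1 (YNL079C, chromosome XIV, 478566 to 479165), the major tropomyosin of actin cables, had 220 and 219 CPM in the pellets of 40 °C and 1263 and 1411 CPM in those of 42 °C, with 1873 and 1630 CPM and 2105 and 1557 CPM in soluble RNA (2.54 ± 0.22, adjusted p = 2.34e-06). Its soluble levels overlapped between the temperatures, while its pellet levels did not. AST2, a paralog of a protein that targets PMA1, had 14.4 and 16.5 CPM in the pellets of 40 °C and 78.4 and 90.9 CPM in those of 42 °C (2.28 ± 0.21, adjusted p = 3.77e-06). FAS1, the beta subunit of fatty acid synthase, had 1929 and 1947 CPM in soluble RNA of 40 °C and 644 and 892 CPM at 42 °C (1.92 ± 0.22). Relative to other genes, ribosomal protein genes moved the other way. At 40 °C their median was -1.18, and 115 of 132 were lower at 42 than at 40 °C and 1 higher. Without the second soluble library 83 were lower. RPL3 had 4055 and 4365 CPM against 3612 and 4235 CPM at 40 °C (-1.66 ± 0.23, adjusted p = 9.86e-05). Its scaled levels were thus similar in the fractions at 40 °C and lower in the pellet at 42 °C. PAB1 had 634 and 712 CPM against 228 and 346 CPM at 40 °C and stood lower at 42 °C relative to other genes (-1.03 ± 0.23, adjusted p = 0.00362).

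The third question was whether the pellet at 42 °C depended on the Ded1 allele. The differences of the strains ran together (rho 0.936), and 427 genes (6.95%) were called, 286 (4.66%) with a higher difference in IDRm and 141 (2.3%) with a lower one. The edgeR fit of the 8 libraries of 42 °C alone called 0 genes, with 663 at an unadjusted p under 0.05, and DESeq2 on all libraries called 646. With the harvest as a replicate block 467 were higher and 268 lower. Without one WT library of 42 °C the count was 188 (pellet 1), 208 (pellet 2), 1522 (soluble 1) or 329 (soluble 2). Of the 427 calls 67% were higher in IDRm, but 36.7% were with upper-quartile scaling, which moved the median over all genes to -0.13, and 49.5% were without the first WT soluble library. The size and split of the strain difference thus depended on single libraries. PAB1 had 786 and 865 CPM against 254 and 243 CPM in IDRm, a strain difference of 1.53 ± 0.24 (adjusted p = 0.000471). Its soluble levels in IDRm lay under those in WT and its pellet levels above them. DED1 had 1498 and 1558 CPM against 1424 and 1378 CPM in IDRm (0.79 ± 0.19, adjusted p = 0.0155), and DBP1 45 and 45.3 CPM against 41.8 and 41.7 CPM (-1.03 ± 0.23, adjusted p = 0.00918). The DED1 strain difference was not called without WT pellet 1 (adjusted p = 0.0787) or WT pellet 2 (adjusted p = 0.0513). The allele may differ from R64 within DED1, and its sequence was not used here. Of the ribosomal protein genes 34 were higher in IDRm and 1 lower. Leaving out a WT library of 42 °C gave 14 higher (pellet 1), 15 (pellet 2), 73 (soluble 1) or 14 (soluble 2), and leaving out one of IDRm gave 17 (pellet 1), 64 (soluble 1) or 17 (soluble 2). The gene lower in IDRm was RPP0, with 418 and 257 CPM against 2355 and 1606 CPM in IDRm (-3.17 ± 0.29, adjusted p = 2.43e-06). Since the total level of RPP0 exceeded the weighted sum of its fractions in all WT harvests and not in those of IDRm, a fault in its WT fraction counts and a strain difference cannot be told apart. VIP1, an inositol pyrophosphate kinase, had 324 and 455 CPM against 51.2 and 62.2 CPM in IDRm and 359 and 339 CPM against 218 and 176 CPM in WT (1.96 ± 0.21, adjusted p = 1.5e-05). ILV6, the regulatory subunit of acetolactate synthase, had 149 and 113 CPM against 271 and 250 CPM in IDRm, on the soluble side, and 82.0 and 93.7 CPM against 36 and 50.6 CPM in WT (-2.03 ± 0.22, adjusted p = 1.5e-05).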

How the data were processed

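The submitters' processing notes list bcl2fastq 2.19.1, STAR 2.5.2b and the R64 genome. The authors deposited whole-number counts of reads for each gene, with no scaling. No source used here names the counting tool or says whether strand was used, so paralogs, overlapping genes and antisense genes are uncertain. The table held 6697 genes, of which 6014 matched the R64 annotation by locus tag, and the other 683 held 0.277% of the counts.

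The 24 pellet and soluble libraries (4934241 to 13730247 counts) entered 1 edgeR 4.0.16 fit (limma 3.58.1, R 4.3.3) with a term for each of 12 groups, 12 residual degrees of freedom, robust quasi-likelihood and TMM scaling. Low genes were removed by filterByExpr (minimum 10), leaving 6141. Shifts and strain differences are 3 interaction contrasts, each adjusted separately. Alternatives were DESeq2 1.42.0, other scalings, GC or length trends removed, replicate blocks and left-out libraries.

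Genes were named by rule: 10 called coding genes at either end of the difference, limited to those that bear a standard name and reach 32 CPM (5 and 5 in each interaction), up to 3 called members of each of 24 lists, and a fixed set. ATP6, VAR1, COX3, SLK19, MAD1, ULP1, RPL25, TAL1, KAR2, STI1, RPN2, SDH1 and TIF4632 were named after their values were seen. Members and lists were chosen with earlier results of these data known.

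The labels do not tie replicate numbers to cultures. Replicate differences of pellet and soluble RNA correlated at 0.079 in WT at 42 °C, 0.494 at 30 °C and -0.072 at 40 °C. In IDRm they correlated at 0.687, 0.058 and -0.183 (42, 30 and 40 °C). Same-numbered libraries thus deviated together in some groups and not in others, which does not show a shared culture. The main fit has no block. The insoluble share used genes that reached 50 counts in the total, pellet and soluble library of a harvest. Same-numbered libraries of a strain and temperature were taken as a harvest.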

Additional observations from a re-analysis of the deposited data

Results flagged for a closer look

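The values here are differences between groups in the pellet-soluble difference that passed the test of that difference itself (edgeR interaction contrasts, adjusted p under 0.05), for the genes named by rule. The libraries of WT at 42 °C enter all 3 contrasts, so the values are not independent, and the second soluble library enters each.

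From 30 to 42 °C the WT difference moved toward the pellet at RPA190 (3.24), AVL9 (3.08), GSH2 (2.98), the splicing factor gene PRP39 (2.95), LEC1 (2.93), REA1 (2.09) and DBP1 (0.86). It fell, relative to other genes, at RPS12 (-2.39), of the small ribosomal subunit, and ARC40 (-2.36), of the actin-nucleating Arp2/3 complex. It also fell at TAR1 (-2.14), encoded antisense within the ribosomal DNA, RPP1A (-2.10), of the ribosomal stalk, and RPS2 (-2.02). Smaller falls were those of ACT1 (-1.30), UBI4 (-1.21), DED1 (-0.95), TDH3 (-0.94) and PMA1 (-0.78). The estimated insoluble shares of RPS12, ARC40, RPP1A and RPS2 were lower at 42 °C in both replicates. The share of TAR1 was lower too but is uncertain. Its total lay more than 2-fold below the weighted sum of its fractions in both WT harvests of 42 °C. Whether its counts used strand is not known. The shares of ACT1, UBI4 and DED1 overlapped between the temperatures, and those of TDH3 and PMA1 were higher at 42 °C. PMA1 had 50.5% and 39.0% insoluble at 30 °C and 52.5% and 55.7% at 42 °C. RPS12 had 454 and 371 CPM in the pellets of 42 °C against 3727 and 7600 CPM in soluble RNA, and was not called without the second soluble library (-1.79, adjusted p = 0.0851) or without the second pellet (-2.25, adjusted p = 0.0563). PMA1 was not called without the second pellet (-0.73) or without soluble replicate 1 of 30 °C (-0.60), nor REA1 (0.27) and DBP1 (0.52) with the length trend removed.

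From 40 to 42 °C it moved toward the pellet at TPM1 (2.54), AST2 (2.28), IFH1 (2.01), a coactivator of ribosomal protein genes, BRE5 (2.01), a ubiquitin protease cofactor, FAS1 (1.92) and DBP1 (0.69). It fell, relative to other genes, at RPS31 (-3.05), RPS12 (-3.01), RPP1A (-2.92), RPP2B (-2.80) and RPL16B (-2.80). It also fell at RPL3 (-1.66), PAB1 (-1.03), ACT1 (-0.84), UBI4 (-0.75) and DED1 (-0.61). Without the second soluble library RPS12 stood at -2.41, RPP1A at -2.28, RPP2B at -2.04 and RPL16B at -1.95. Without it the calls of IFH1 (1.66, adjusted p = 0.0632), DBP1 (0.44, adjusted p = 0.179), ACT1 (-0.51, adjusted p = 0.064) and DED1 (-0.37, adjusted p = 0.119) were lost. DED1 and DBP1 were also lost without either pellet of 42 °C, and ACT1, DBP1 and DED1 without soluble replicate 1 of 40 °C. Without pellet replicate 1 of 40 °C DBP1 and DED1 were lost, without pellet replicate 2 DBP1 and without soluble replicate 2 DED1. ACT1 (-0.52) and DED1 (-0.13) were not called with the GC trend removed.

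At 42 °C the difference was higher in IDRm than in WT at RPS12 (2.67), URA6 (2.46), of pyrimidine synthesis, RPL1A (2.35), SCW10 (1.96), VIP1 (1.96), PAB1 (1.53) and DED1 (0.79). It was lower in IDRm at RPP0 (-3.17), ILV6 (-2.03), PIB2 (-2.02), ACH1 (-1.93), KRE1 (-1.69) and DBP1 (-1.03). None of these 13 was called in the fit of the 8 libraries of 42 °C alone, where their adjusted p ran from 0.0696 to 0.399. Without the second WT soluble library the calls of RPS12 (2.06, adjusted p = 0.14) and RPL1A (1.89, adjusted p = 0.0783) were lost. Without either WT pellet RPS12, RPL1A and DED1 were lost, and RPS12 also without IDRm pellet 1 or IDRm soluble 2. For RPP0 a fault in the WT fraction counts and a strain difference cannot be told apart, since its WT fractions do not add up to its total.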

How the results depend on the processing

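Of 97 genes named in the WT comparison at 42 °C 92 were called, and 83 of these kept direction and call under all 17 alternatives. Higher and lower calls there stayed within 1.5 times of 2605 and 2251 throughout, but with the length trend removed 324 calls turned. A pair of settings, both without the second soluble library (with the GC trend removed, or also without pellet 2), were chosen after seeing the data. Medians that changed sign were those of mitochondrially encoded genes with the GC trend removed (-0.0093), also without soluble 2 (-0.27), and without both second libraries (-0.0193); of sterol and fatty acid genes without both (0.0366); and of Msn2/4 genes without soluble 2 and GC trend (0.0013). Leaving out 1 library, medians ran from 0.0811 to 2.05 for mitochondrially encoded, from -0.0376 to 0.36 for cell wall and from -0.50 to 0.0747 for sterol and fatty acid genes. With the length trend removed PMA1 (-0.57), OST4 (0.34), stress granule (-0.36), cell wall (-0.08), nucleoporin (-0.65) and RNA polymerase (0.012) values turned. The length span was 2.71 for pellet 1 and soluble 2 alone and 3.84 at 32 CPM or more.

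Calls lower at 42 than 30 °C numbered 1454 with DESeq2, 1451 with relative log expression and 526 without both second libraries, and 626 to 1094 when 1 library was left out. The share of higher calls was 42.6% (DESeq2), 45.2% (upper quartile) and 47.2% (length trend removed), with medians over all genes of -0.19, -0.15 and -0.03. Against 40 °C, leaving out 1 library gave 589 to 1456 higher and 348 to 899 lower, the GC setting without soluble 2 gave 368 lower, and both second libraries left out gave 538 and 274. For the strains, leaving out 1 library gave 131 to 754 higher and 56 to 768 lower; the 8 libraries alone gave 0 and 0; DESeq2 gave 458 higher; lower calls were 333 (upper quartile), 221 (GC), 220 (culture block with GC) and 245 (length); both second libraries left out gave 139 and 60. The labels do not tie replicate numbers to cultures, and same-numbered libraries deviated together in only some groups. With the culture as replicate block 2610 genes were higher and 2245 lower in the WT comparison, and with the harvest as block 2648 and 2277, and 467 and 268 for the strains. The causes were not tested. Depth limits genes of low count, most in the second soluble library.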

Other observations

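RPP0 was the gene whose total level exceeded the weighted sum of its fractions by more than 2-fold in both WT harvests of 42 °C, at a log2 ratio of 2.05 and 1.76 among 4728 genes measured in both. In the 6 WT harvests the ratio of RPP0 lay between 1.76 and 2.62, and in the 6 IDRm harvests between -0.57 and 0.05. TAR1, which lies within the ribosomal DNA, was the 1 gene below the sum in both WT harvests of 42 °C, at -1.44 and -1.38.

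ULP1, a SUMO protease gene of the nuclear envelope, shared the pattern of SLK19 and MAD1. It had 88.4 CPM in soluble replicate 1 of WT at 42 °C and 17.7 CPM in replicate 2, and 32.3 and 85.2 CPM in those of IDRm. These genes were chosen after their values were seen.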
